A study of Homo sapiens with 6 samples.

Results

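The mRNAs of the COPII coat and of the cargo receptors between endoplasmic reticulum (ER) and Golgi were followed in SK-BR-3 cells after siRNA against GRB2. The set was a list of 36 gene symbols, chosen by function, and all 36 had a row among the 30327 genes of the count table and a row in the FPKM table. It held 8 inner coat genes, 2 outer coat genes, 4 exit site organizers and exchange factors, 8 p24 proteins, 4 lectins and their partner, 3 KDEL receptors, and 7 other receptors and membrane proteins. The question was how far SURF4, a cargo receptor that the study lists among the genes down-regulated in these libraries, moved apart from the other cargo receptors and from the coat. Because SURF4 was singled out on these libraries, its own change is given as a description and not as independent evidence.

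Secretory and membrane proteins leave the ER in vesicles coated by COPII. The small GTPase SAR1 recruits the inner coat of SEC23 and SEC24, SEC24 selects cargo, and the outer coat of SEC13 and SEC31 shapes the bud at exit sites marked by SEC16. Soluble cargo is held by membrane receptors such as SURF4, the p24 proteins (TMED genes), the lectin LMAN1 and the ERGIC proteins, while KDEL receptors bring escaped ER residents back. SK-BR-3 is a HER2-amplified breast cancer line, and GRB2 is an adaptor that couples receptor tyrosine kinases such as HER2 to RAS signaling.

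Bead-captured mRNA was sequenced in 6 libraries, 3 of cells that received a nontargeting siRNA (si_NC) and 3 of cells that received siRNA against GRB2 (si_GRB2). Every library came from the same cell line, and no label says whether replicates were separate cultures, so p-values measure only the spread between these libraries, which may be technical. The title and genotype labels of the treated libraries name overexpression of GRB2, whereas their descriptions name si_GRB2, and the descriptions were followed here. GRB2 itself had 124, 130 and 126 CPM (read counts scaled to the library total, with TMM normalization) in si_NC and 27.8, 28.1 and 29.6 CPM in si_GRB2. Its log2 fold change, si_GRB2 against si_NC throughout, was -2.15 ± 0.04 (SE, adjusted p = 3.87e-15, edgeR quasi-likelihood), so its mRNA was lower in the libraries described as si_GRB2, against their genotype label. Libraries held between 24810378 and 28532480 reads on genes, and the 35 members that could be tested had between 2284 and 56118 reads each over the 6 libraries. Luminal markers were present, with ERBB2 (HER2) between 3410 and 4230 CPM and KRT8 between 4420 and 5990 CPM, while CDH1, which this line is known to lack, had 9 reads in all. With an adjusted p under 0.05, the threshold for a call, ERBB2 was higher in si_GRB2 (0.24), and GRB7, KRT8, KRT18, KRT19 and EPCAM were lower (between -0.55 and -0.20). Of the 9 markers of other cell types, PTPRC, CD3E, PECAM1, COL3A1 and KRT14 had at most 25 reads in all, CD68, VWF and COL1A1 stayed at or below 5.31 CPM, and the basal keratin KRT5 went from 16.8 to 17.4 CPM in si_NC to 8.22 to 8.85 CPM in si_GRB2. The part of these marker changes in the results was not tested.

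SURF4 stood apart from every other member. Its si_NC libraries had 187, 187 and 191 CPM, and its si_GRB2 libraries 93.6, 95.4 and 94.1 CPM. The groups were far from overlapping, with each si_GRB2 library near 0.501 times the control level. The log2 fold change was -1.0 ± 0.03 (SE, adjusted p = 1.28e-12, edgeR quasi-likelihood). Per length, SURF4 went from 43.9 ± 2.1 to 22.7 ± 0.821 FPKM (SD, n = 3), a unit in which reads are scaled by gene length and by the library total. Among all 15801 genes tested, 100 had a lower log2 fold change. In bulk RNA, fewer cells that express a gene and less of its RNA per cell cannot be told apart, here and in each result that follows.

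SURF4 was also the only member past the limits of a differentially expressed gene (DEG), a fold change above 1.5 with an adjusted p under 0.01. Such DEGs made up 2.52% of all genes tested, with 0.829% higher and 1.69% lower in si_GRB2. By the adjusted p alone, 17 of the 35 tested members were called higher, as were 15.2% of all genes tested, and 3 were called lower, as were 15.5% of all genes. Apart from SURF4, the log2 fold changes of the members lay between -0.25 and 0.34. No gene of the count table overlaps SURF4, which is listed as ENSG00000148248.14 and lies on the minus strand at chr9:133361450-133376166 (GRCh38). Of the 7 neighboring genes of the surfeit locus, none was called higher, and SURF1, an assembly factor of cytochrome c oxidase, was lower at -0.24 ± 0.04 (SE, adjusted p = 0.000262), as was the ribosomal protein gene RPL7A at -0.10 ± 0.02 (SE, adjusted p = 0.00147), both by edgeR quasi-likelihood. SURF2, SURF6, MED22, REXO4 and STKLD1 did not pass it.

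**Figure D1:**
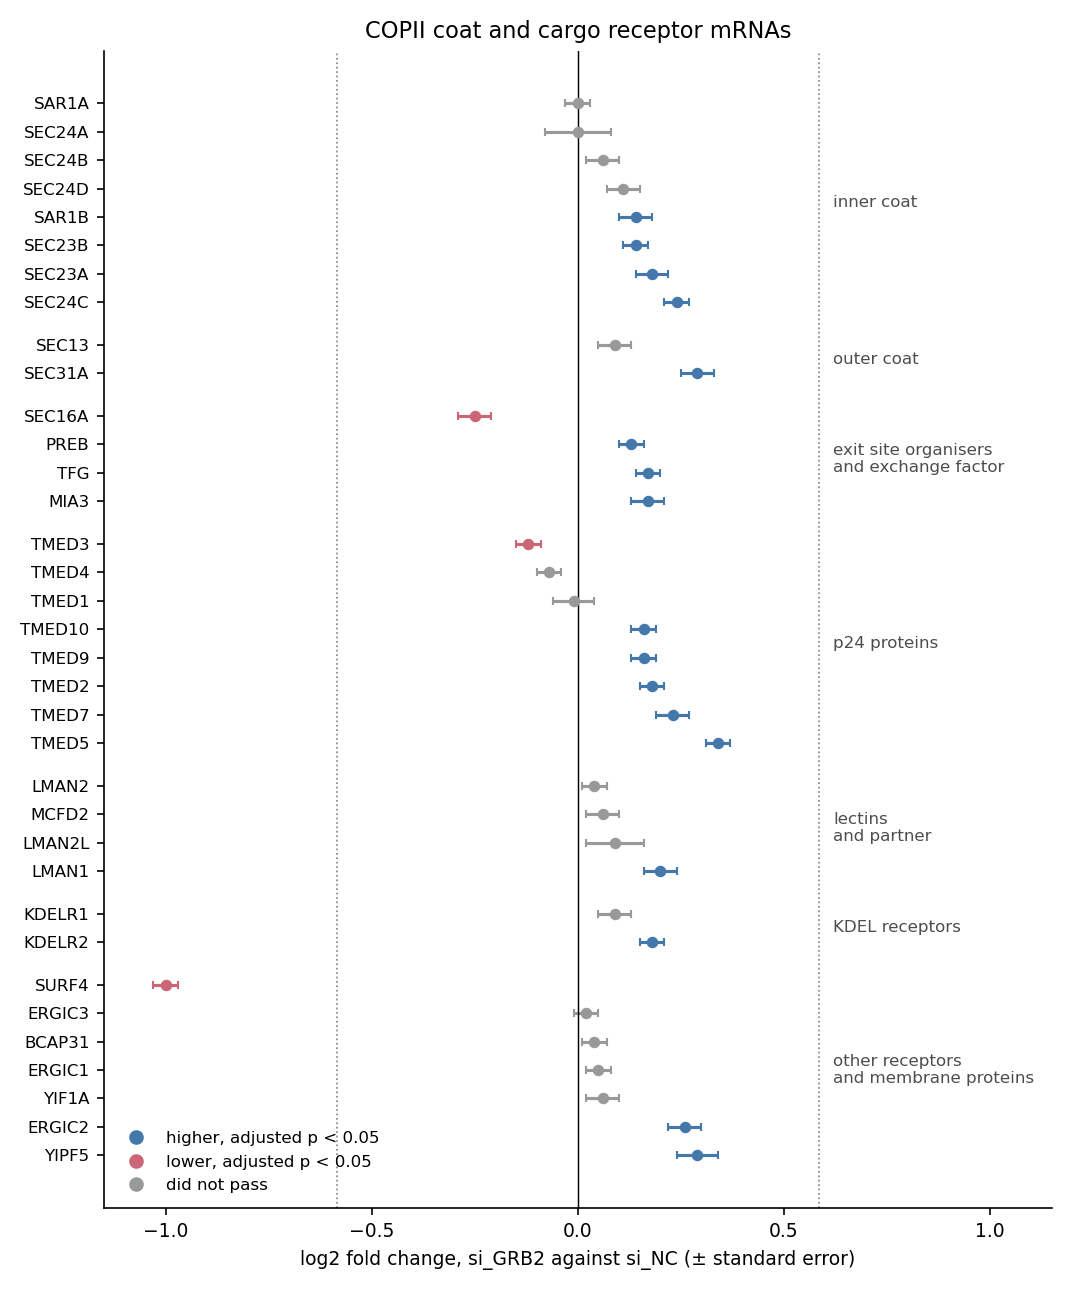
Log2 fold change of the 35 tested members (horizontal axis, si_GRB2 against si_NC, points with standard error), ordered inside 7 groups by role. Dotted lines mark a fold change of 1.5 in either direction. SURF4 lies alone on the left at -1.0, SEC16A and TMED3 are the other members called lower, and the 17 members called higher lie between 0.13 and 0.34.

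The siRNA printed in the methods allowed a look at a sequence feature of the transcripts. Bases 2 to 8 of its guide strand pair with the 7 letters ACAGATC, which were searched on the sense strand of the 3′ UTR of each gene's canonical transcript (GENCODE 44, GRCh38). The letters were found in 6 of 35 tested members (17.1%, median UTR length 1585 bases) and in 1030 of the 12692 tested genes with a 3′ UTR (8.12%, median 1295 bases). SURF4 was the only member with 2 matches, 1 of them starting at base 6 of the UTR and the other at base 1927 of 2029. The windows of the members with a match that were called are printed on the transcript strand with the match in capitals. They are SURF4 and SEC16A, which were lower, and ERGIC2, which was higher.
SURF4 site 1, chr9:133363475-133363498, minus strand, from the last coding codon through the stop codon into the 3′ UTR: tggtaacagtcACAGATCcctacc
SURF4 site 2, chr9:133361554-133361577, minus strand, 3′ UTR: ttatgtgggaaACAGATCtaaatc
SEC16A, chr9:136440423-136440446, minus strand, 3′ UTR: gtggaattagcACAGATCcttcct
ERGIC2, chr12:29337881-29337904, minus strand, 3′ UTR: actgcccctggACAGATCtaattt
The other members with a match were SAR1A, SEC24A and SEC24B, each with 1 match and log2 fold changes of -0.004, 0.0035 and 0.058, none of which passed the test. Over all tested genes, the median log2 fold change was 0.0076 for 11662 genes without a match, -0.0584 for 925 genes with 1 match, -0.0522 for 91 genes with 2 matches and -0.0107 for the 14 genes with 3 or more. In the same order, 48.3%, 61.1%, 58.2% and 57.1% of the genes were lower in si_GRB2. The median UTR length in these groups was 1169.5, 3130, 5010 and 7730 bases. Of the 91 genes with 2 matches, none had a lower log2 fold change than SURF4. Only 100 of all 15801 genes tested did, so few or none are awaited among any 91 genes. A match is a run of letters and not a measured site. The methods print 1 siRNA against GRB2 while the study's supplementary list of RNAs names several, the labels do not say which of them each library received, and the part of these matches in the result was not tested.

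Relative to the other cargo receptors and to the coat, SURF4 was lower in every si_GRB2 library. The ratio of SURF4 to another gene was taken inside each library, where the scaling between libraries cancels. Against the median of the 18 other cargo receptors that could be tested, the log2 ratio was 0.20, 0.22 and 0.24 in si_NC and -0.86, -0.77 and -0.78 in si_GRB2. Against the median of the 10 coat genes it was 1.59, 1.64 and 1.71 in si_NC and 0.52, 0.57 and 0.56 in si_GRB2. The groups did not overlap in either case. These ratios are of CPM, which is not scaled by gene length, so only their change between the groups compares SURF4 with its partners.

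Taken gene by gene, all 28 ratios were lower in each si_GRB2 library than in any si_NC library. The change ran from -1.34 (against TMED5) to -0.87 (against TMED3), with a median of -1.08 over the receptors and -1.12 over the coat. Each of the 28 exact two-sided permutation tests over 3 against 3 libraries gave p = 0.1, the smallest that this design allows, and the Benjamini-Hochberg value over the 28 was also 0.1. All 28 share the SURF4 values, so they are not separate pieces of evidence. From the fitted values, the log2 fold change of SURF4 minus the median of the receptors was -1.09, and minus the median of the coat -1.12.

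**Figure D2:**
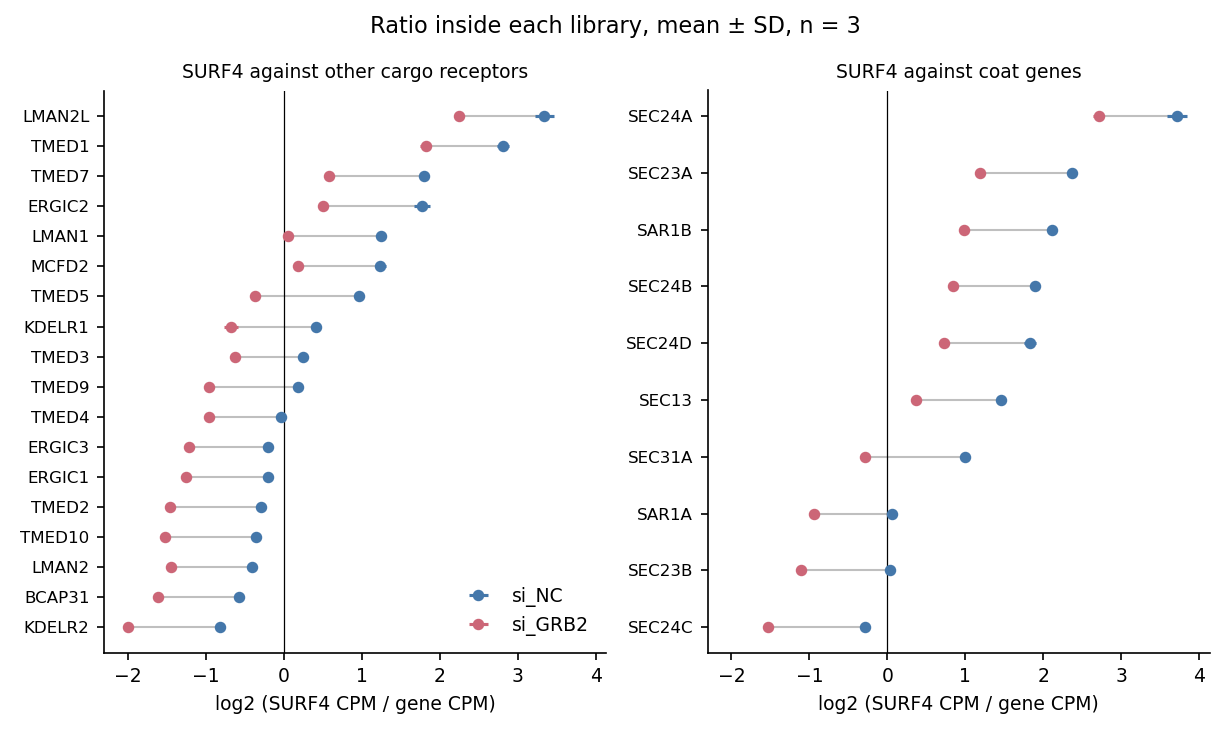
Log2 ratio of SURF4 CPM to the CPM of each other cargo receptor (left, 18 genes) and each coat gene (right, 10 genes), mean ± SD of 3 libraries per group. Every gray line runs leftward from si_NC to si_GRB2 by between -0.87 and -1.34, while the position along the axis also depends on gene length.

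The coat itself did not follow SURF4. Of its 10 genes, 5 were called higher and 0 lower, where 30.6% of all tested genes were called in either direction. The median log2 fold change of the coat was 0.12, against 0.0019 for all genes. Genes with as many reads as the members, which the test can call at smaller changes, were called higher in 23.0% and lower in 21.0% of 7867 cases, with a median of 0.0081. Over all 35 tested members, 15 did not pass, and 24 had an unadjusted p under 0.05. The share of all genes under that unadjusted limit is not given here, and is at least the 30.6% called by the adjusted p. The median of the members was 0.11, with 29 log2 fold changes above 0 and 6 below. By CPM alone, si_GRB2 lay above si_NC without overlap for 20 members and below it for 4, against 21.1% and 21.2% of all genes. The members share a pathway and the list was chosen with earlier results of these data known, so its counts are a description.

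In the inner coat, 4 of 8 genes were called higher and 0 lower. Over all tested genes the shares were 15.2% higher and 15.5% lower, and over genes with as many reads as the members 23.0% and 21.0%. SEC24C, a cargo-selecting subunit, had 232, 226 and 232 CPM in si_NC and 271, 276 and 269 CPM in si_GRB2. The groups did not overlap, and the log2 fold change was 0.24 ± 0.03 (SE, adjusted p = 4.39e-06, edgeR quasi-likelihood). Its paralogs did not pass that test. SEC24D had 54.7, 53.2 and 50.4 CPM against 56.2, 57.5 and 56.8 CPM, a change of 0.11 with an adjusted p of 0.0599. SEC24B had 51.9, 51.4 and 48.9 CPM against 52.5, 53.3 and 52.6 CPM, also without overlap, and SEC24A had 14.5, 15.4 and 13.1 CPM against 13.6, 14.3 and 15.1 CPM, with overlap. The fold changes of SEC24B and SEC24A were 1.04 and 1.0.

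SEC23A and SEC23B encode the subunit that activates the SAR1 GTPase, and both rose. SEC23A went from 36.7, 37.0 and 35.5 CPM to 41.1, 40.6 and 42.3 CPM (0.18 ± 0.04, SE, adjusted p = 0.00325, edgeR quasi-likelihood). SEC23B, the paralog with the higher FPKM, went from 184, 186 and 183 CPM to 197, 205 and 208 CPM (0.14 ± 0.03, SE, adjusted p = 0.00152). Neither gene had overlapping groups, and limma on FPKM without a filter called neither (adjusted p between 0.0503 and 0.0966). SAR1B, the GTPase paralog needed for chylomicron export, rose from 43.7, 44.1 and 42.4 CPM to 47.0, 47.4 and 49.3 CPM (0.14 ± 0.04, SE, adjusted p = 0.0154). This call was lost without si_NC replicate 3 (adjusted p = 0.0668) and without si_GRB2 replicate 3 (adjusted p = 0.0619), and limma on FPKM did not make it (adjusted p between 0.0674 and 0.127). SAR1A, with 179 to 185 CPM against 178 to 184 CPM, did not pass (adjusted p = 0.94). SAR1B and SEC24A overlap on opposite strands, and whether reads were counted by strand is not given in the sources used here, although the library kit marks strand.

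In the outer coat, SEC31A had 94.9, 97.2 and 91.5 CPM in si_NC and 113, 115 and 119 CPM in si_GRB2. That was a rise without overlap, of 0.29 ± 0.04 (SE, adjusted p = 1.17e-05, edgeR quasi-likelihood). An antisense gene of its neighbor, THAP9-AS1, lies on the same strand as SEC31A with overlapping exons, held 26.9% as many reads and went the other way at -0.18 ± 0.05. SEC13, the partner of SEC31A in the coat and also a nuclear pore protein, had 70.3, 67.5 and 67.3 CPM against 75.9, 71.7 and 71.2 CPM. Its groups did not overlap, but its log2 fold change of 0.09 did not pass (adjusted p = 0.0843).

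The factors that set up exit sites split. SEC16A, the scaffold of ER exit sites, was the only member of the coat machinery that fell. It had 109, 102 and 113 CPM in si_NC and 86.7, 91.3 and 93.7 CPM in si_GRB2, without overlap. Its log2 fold change was -0.25 ± 0.04 (SE, adjusted p = 0.000237, edgeR quasi-likelihood), a call that limma on FPKM did not make (adjusted p between 0.0627 and 0.216 over 3 settings). TFG, which organizes vesicles leaving exit sites, rose from 121 to 127 CPM to 138 to 140 CPM (0.17 ± 0.03, SE, adjusted p = 0.000519). MIA3 (TANGO1), the receptor for collagen export, rose from 42.3 to 45.4 CPM to 48.8 to 49.3 CPM (0.17 ± 0.04, SE, adjusted p = 0.0059), a call not made by limma on FPKM without a filter (adjusted p of 0.116 and 0.108). PREB (SEC12), the exchange factor that loads SAR1 with GTP, rose from 97.8 to 104 CPM to 109 to 111 CPM (0.13 ± 0.03, SE, adjusted p = 0.0095, edgeR quasi-likelihood). The call for PREB was lost without si_NC replicate 1 (adjusted p = 0.0635) or si_NC replicate 2 (adjusted p = 0.0604), and with limma on FPKM (adjusted p between 0.0536 and 0.175).

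**Figure D3:**
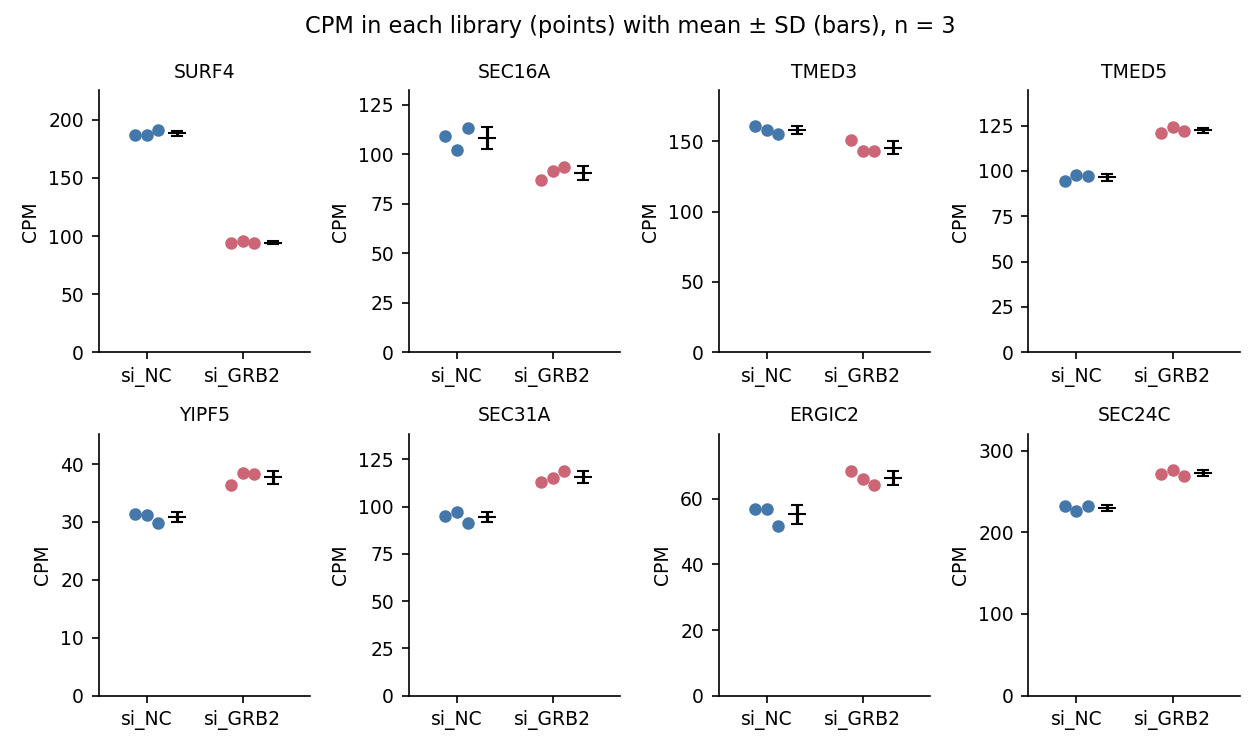
CPM of 8 members in each of the 6 libraries (points, vertical axes from 0) with mean ± SD per group (n = 3). SURF4 falls from at least 187 to at most 95.4 CPM, SEC16A and TMED3 fall by much less, and TMED5, YIPF5, SEC31A, ERGIC2 and SEC24C rise without overlap.

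Among the cargo receptors other than SURF4, 8 of 18 were called higher and 1 lower, with a median log2 fold change of 0.09. The shares over all genes were 15.2% and 15.5%, and over genes with as many reads as the members 23.0% and 21.0%, which also stand beside the counts of the receptor families that follow. The p24 proteins, which cycle between ER and Golgi as hetero-oligomers and carry GPI-anchored proteins, had 5 of 8 genes higher and 1 lower. TMED5 had the largest rise of any member, from 94.4, 97.9 and 97.1 CPM to 121, 124 and 122 CPM. This was 0.34 ± 0.03 on the log2 scale (SE, adjusted p = 6.94e-07, edgeR quasi-likelihood), and 1253 of all genes tested had a higher value. TMED7 rose from 52.8, 55.9 and 53.2 CPM to 61.4, 62.6 and 65.1 CPM (0.23 ± 0.04, SE, adjusted p = 0.000495). Genes on the opposite strand with overlapping exons held few reads beside TMED5 (CCDC18, 7.77% as many) and SEC24C (11.1% as many), but more than MCFD2 (TTC7A, 121%), and TTC7A was lower at -0.21 ± 0.03.

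TMED2, TMED10 and TMED9, the core p24 genes, rose by less. TMED2 went from 233, 229 and 227 CPM to 255, 259 and 268 CPM (0.18 ± 0.03). TMED10 went from 249, 242 and 234 CPM to 271, 269 and 272 CPM (0.16 ± 0.03), and TMED9 from 163, 163 and 168 CPM to 187, 184 and 180 CPM (0.16 ± 0.03). None of these genes had overlapping groups, and their adjusted p ranged from 0.000119 to 0.000608 (edgeR quasi-likelihood). For TMED9, limma on FPKM without a filter did not make the call (adjusted p of 0.0609 and 0.0575).

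TMED3 fell, and TMED4 lay lower without passing the test. TMED3 had 161, 158 and 155 CPM in si_NC and 151, 143 and 143 CPM in si_GRB2, a fall of 0.12 on the log2 scale (SE 0.03, adjusted p = 0.00799, edgeR quasi-likelihood). Limma on FPKM did not make this call (adjusted p between 0.295 and 0.305 over 3 settings). TMED4 had 191, 196 and 195 CPM against 181, 186 and 186 CPM. Its groups did not overlap, yet its log2 fold change of -0.07 did not pass (adjusted p = 0.0586) except without si_NC replicate 1 (adjusted p = 0.0426) or with at least 10 counts asked of every library (adjusted p = 0.035). TMED1, with 25.9, 28.3 and 26.0 CPM against 26.9, 25.3 and 27.6 CPM, overlapped between the groups, and its gene shares exons on the opposite strand with DNM2, which held more reads than TMED1 itself.

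Of the lectins, LMAN1 rose and the rest did not pass. LMAN1 (ERGIC-53), the mannose lectin that carries coagulation factors V and VIII, had 81.1, 79.4 and 76.9 CPM in si_NC and 88.8, 89.0 and 95.4 CPM in si_GRB2. The groups did not overlap, with a log2 fold change of 0.20 ± 0.04 (SE, adjusted p = 0.000805, edgeR quasi-likelihood). MCFD2, the calcium-binding partner of LMAN1 in that transport, had 80.8, 82.0 and 76.5 CPM against 82.8, 81.3 and 85.2 CPM, with overlap and a change of 0.06 that did not pass (adjusted p = 0.273). LMAN2 (VIP36) and LMAN2L, related lectins, had log2 fold changes of 0.04 and 0.09 and did not pass either. LMAN2 had 237, 252 and 256 CPM in si_NC and 257, 254 and 256 CPM in si_GRB2. LMAN2L had 20.2, 17.9 and 17.5 CPM against 20.1, 20.4 and 18.8 CPM, and both overlapped between the groups.

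The KDEL receptors, which return soluble ER residents, were represented by KDELR2 and KDELR1, since KDELR3 had 55 reads in all and could not be tested. KDELR2 had 326, 340 and 325 CPM in si_NC and 371, 375 and 378 CPM in si_GRB2, a rise without overlap of 0.18 ± 0.03 (SE, adjusted p = 8.4e-05, edgeR quasi-likelihood). KDELR1 had 136, 144 and 144 CPM against 160, 144 and 146 CPM, with 1 si_GRB2 library above the others, and did not pass (adjusted p = 0.117). KDELR2 shares exons on the same strand with DAGLB, which held 18.3% as many reads and did not pass the test (-0.05 ± 0.04).

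Among the ERGIC proteins, which form a receptor complex of the intermediate compartment, ERGIC2 rose while ERGIC1 and ERGIC3 did not pass. ERGIC2 had 57.0, 56.9 and 51.8 CPM in si_NC and 68.5, 65.9 and 64.3 CPM in si_GRB2 (0.26 ± 0.04, SE, adjusted p = 0.000292, edgeR quasi-likelihood), without overlap. FAR2, on the opposite strand with overlapping exons and 99.7% as many reads, did not pass (-0.07 ± 0.04). ERGIC1 had 215, 217 and 219 CPM against 218, 229 and 227 CPM, and ERGIC3 had 213, 220 and 215 CPM against 225, 212 and 220 CPM, each with overlap. YIPF5, a multi-span protein of exit sites and cis-Golgi, rose from 31.4, 31.2 and 29.8 CPM to 36.4, 38.5 and 38.2 CPM (0.29 ± 0.05, SE, adjusted p = 0.000145). Its partner YIF1A (0.06) and BCAP31 (0.04), a chaperone-like export factor for membrane proteins, did not pass, with adjusted p of 0.315 and 0.294. YIF1A shares exons on the opposite strand with CNIH2, which held 15.0% as many reads.

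Levels between genes were compared per length, in FPKM. In si_NC the order was led by LMAN2 (92.1 ± 6.67), BCAP31 (68.1 ± 4.59), KDELR2 (67.5 ± 2.46), KDELR1 (50.6 ± 3.19), TMED2 (48.1 ± 1.14) and SURF4 (43.9 ± 2.1), all as mean ± SD of 3 libraries. BCAP31 and KDELR2 differed by less than their spread, as did KDELR1 and TMED2. In si_GRB2 SURF4 was at rank 14 of 36 in place of rank 6, where it differed from YIF1A (23.1 ± 0.342 FPKM) by less than the spread. The place of LMAN2 rests on the gene length behind its FPKM. For 33 of the 36 members, the length that counts and FPKM imply was 1.23 times the summed exon length of GENCODE 44, within 2%, but LMAN2, SEC16A and ERGIC1 departed from it. Rescaled to those exon lengths, LMAN2 had 18.7 ± 1.36 FPKM and rank 15, and SURF4 had rank 5 in si_NC and 13 in si_GRB2.

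**Figure D4:**
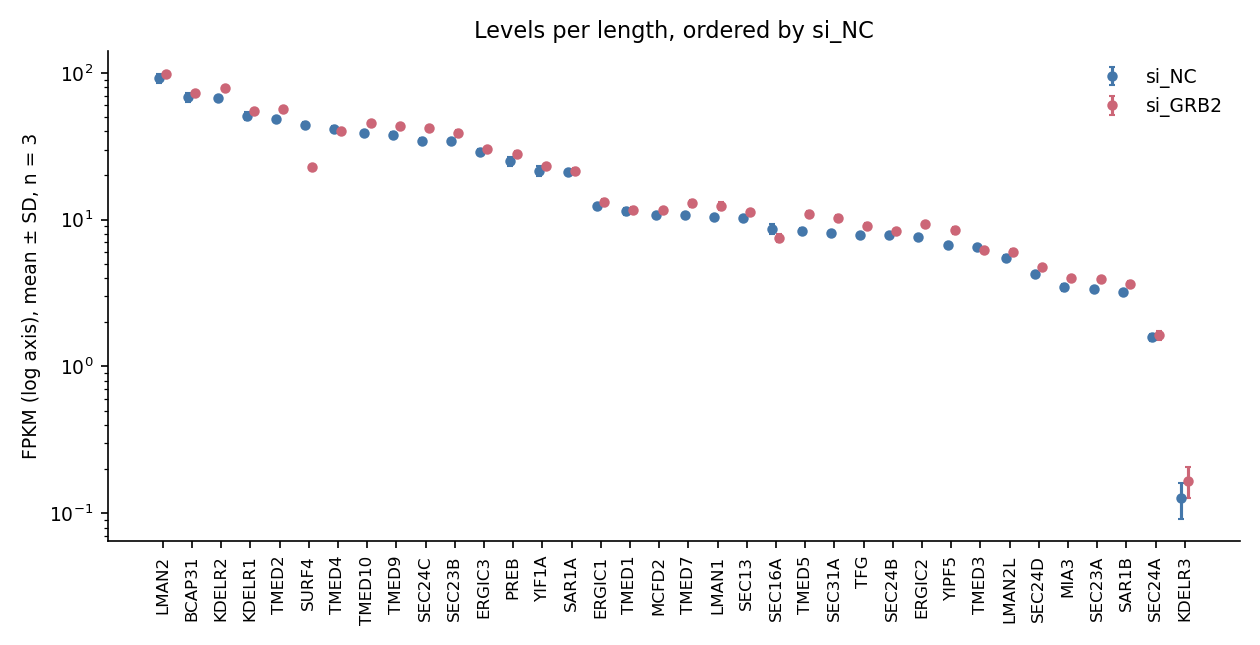
FPKM of the 36 members as deposited (vertical log axis, mean ± SD, n = 3 libraries per group), ordered by si_NC. SURF4 drops from 43.9 to 22.7 FPKM, from rank 6 to rank 14, while most other members lie slightly higher in si_GRB2. KDELR3 lies lowest at 0.127 and 0.167 FPKM.

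Summed in FPKM, the receptors other than SURF4 held 557 ± 23.9 FPKM in si_NC and 614 ± 14.3 FPKM in si_GRB2 (SD, n = 3), and the coat held 128 ± 3.44 and 146 ± 5.43 FPKM. In both cases the groups did not overlap. With SURF4 included, the receptor sums overlapped, at 601 ± 26.0 and 636 ± 15.1 FPKM. SURF4 made up 7.34%, 7.2% and 7.37% of summed receptor FPKM in si_NC and 3.52%, 3.62% and 3.55% in si_GRB2. Sums of FPKM follow the most abundant genes and the scaling of the deposited values. Under that scaling, genes with a mean of at least 1 FPKM had a median log2 fold change of 0.036. This median is of log2(FPKM + 1), where the added 1 shrinks the changes of low genes, and the sums hold no such addition.

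Inside the families, the make-up differed by small amounts. SEC24C made up 71.6 ± 0.951% of summed SEC24 FPKM in si_NC and 74.0 ± 0.269% in si_GRB2 (SD, n = 3), while SEC24B made up 16.2 ± 0.414% and 14.7 ± 0.0682%. In the p24 family, TMED4 held 20.3 ± 0.321% and 17.8 ± 0.223%, and TMED5 held 4.14 ± 0.0839% and 4.84 ± 0.0754%. For ERGIC2 the share of the ERGIC genes was 15.6 ± 0.749% and 17.8 ± 0.457%, and for SAR1B the share of SAR1 was 13.3 ± 0.151% and 14.5 ± 0.137%. The groups did not overlap for any of these 6 genes. In CPM, which is not scaled by length, TMED5 held 8.28% and 9.73% of its family, a difference of 1.45 points in place of 0.702. SEC23B (91.0% and 90.7%), KDELR2 (57.1% and 58.7%) and LMAN2 (85.2% and 84.1%) did overlap, and with rescaled lengths LMAN2 made up 53.9% of its family in si_NC. Of 26 shares, SURF4 included, 16 did not overlap. Beside them, the CPM of 21.1% of all tested genes lay higher and of 21.2% lower without overlap. The same count for shares in other gene families was not made. Shares of a family sum to the whole, so they are not separate results, and those of SAR1A and SAR1B mirror each other. For the 16 shares, the exact two-sided permutation p was 0.1, the smallest possible with 3 against 3 libraries. It was 0.163 after Benjamini-Hochberg adjustment over the 26, so no share passed a threshold of 0.05.

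**Figure D5:**
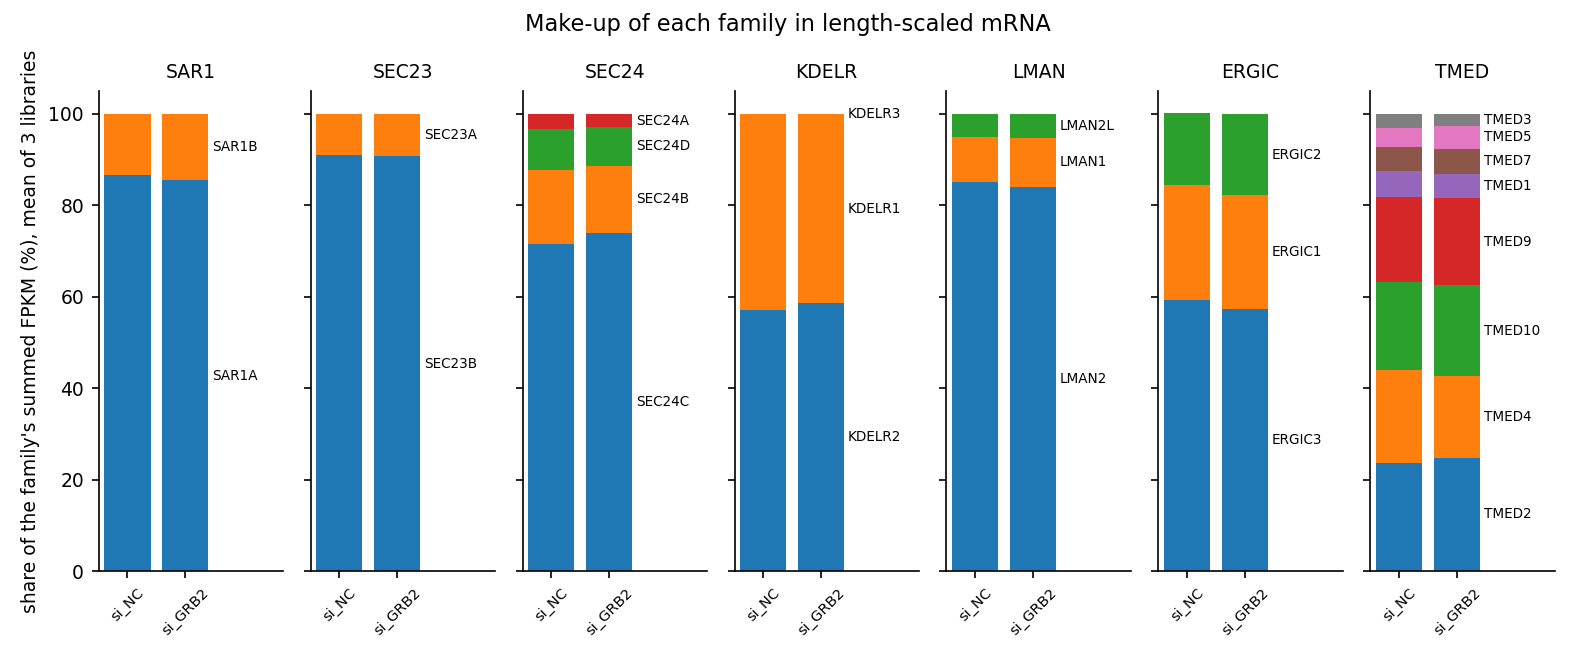
Share of each paralog in the summed FPKM of its family (vertical axis in percent, mean of 3 libraries), with si_NC and si_GRB2 side by side for 7 families. Each family keeps its leading gene, and the shifts are small, such as SEC24C from 71.6% to 74.0%. The LMAN panel depends on the gene length behind LMAN2.

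Other genes of the pathway, from 5 lists outside the set, gave the surroundings. Of 15 genes for tethering and fusion at the Golgi, 5 were called higher and 0 lower, with a median log2 fold change of 0.06. Here and for the next list, the shares over all genes are 15.2% higher and 15.5% lower, and over genes with as many reads as the members 23.0% and 21.0%. GOLGA2 (GM130), a cis-Golgi tether, had 51.7, 49.6 and 54.5 CPM in si_NC and 70.9, 77.7 and 71.0 CPM in si_GRB2 (0.50 ± 0.05, SE, adjusted p = 7.5e-07, edgeR quasi-likelihood), and USO1 (p115), its tethering partner, rose by 0.33 ± 0.04. Among 14 subunits of TRAPP, the complex that tethers COPII vesicles and activates RAB1, 6 were higher and 1 lower, with a median of 0.10. TRAPPC5, TRAPPC9 and TRAPPC10 had 63, 983 and 1438 reads in all, fewer than any tested member. The shares of 23.0% and 21.0% are not matched to them. TRAPPC11 (0.28 ± 0.06) and TRAPPC8 (0.25 ± 0.05) rose most and TRAPPC6B fell by 0.32 (SE 0.05).

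Of 20 less common partners of COPII that could be tested, 4 were called higher and 5 lower, with a median of 0.02. Beside them stand 15.2% higher and 15.5% lower over all tested genes, and 23.0% and 21.0% of genes with as many reads as the members. Several genes of this list had fewer reads than any tested member, such as LMAN1L with 84 in all, so the latter shares are not matched to them. SEC23IP (p125), which binds SEC23 and SEC31 at exit sites, had 42.2, 43.5 and 43.3 CPM in si_NC and 25.5, 25.2 and 26.2 CPM in si_GRB2. It passed the DEG limits without overlap, at -0.75 ± 0.04 (SE, adjusted p = 3.32e-09, edgeR quasi-likelihood). SEC31B, the minor paralog of SEC31A, was the other DEG at 0.97 ± 0.20 (SE), but had 351 reads in all, from 1.11 to 2.0 CPM in si_NC and from 2.82 to 3.12 CPM in si_GRB2. YIPF6, a Golgi relative of YIPF5, rose by 0.34 ± 0.04, and CNIH2, a cornichon-type receptor, fell by 0.54 (SE 0.09).

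The unfolded protein response raises chaperones and export genes when the ER is loaded. Of 22 of its genes, 14 were called higher and 2 lower, with a median log2 fold change of 0.14 and 0 past the DEG limits, beside 15.2% higher and 15.5% lower over all genes, and 23.0% and 21.0% of genes with as many reads as the members. CALR, HSP90B1, HSPA5, XBP1 and PDIA6, all called higher, had more reads than any member, from 64405 to 122274 in all. The latter shares are not matched to them. EDEM1, a lectin of ER-associated degradation, rose by 0.39 ± 0.04 (SE, adjusted p = 4.37e-06, edgeR quasi-likelihood), from 43.5 to 46.3 CPM to 56.1 to 60.3 CPM. DNAJB9, an ER co-chaperone, rose by 0.36 ± 0.04 (SE, adjusted p = 8.55e-06). DNAJC3 and PDIA4, a co-chaperone and a disulfide isomerase of the same compartment, fell by 0.10 and 0.09 (adjusted p = 0.0256 and 0.0339).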

How the data were processed

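Poly(A) RNA-seq of 3 si_NC and 3 si_GRB2 libraries of SK-BR-3 cells was used. The authors trimmed reads with FASTX-Toolkit, aligned them to GRCh38 with HISAT2 and deposited raw read counts per gene. The authors also deposited FPKM, with scaling total and annotation not given in the sources used here, as for the use of strand. Groups came from the sample descriptions.

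Counts were tested with edgeR 4.0.16 (R 4.3.3): TMM factors, filterByExpr (15801 genes kept), glmQLFit and glmQLFTest, and Benjamini-Hochberg adjustment over all genes kept. "Called" means an adjusted p under 0.05. CPM are TMM-normalized, and standard errors were derived from the log2 fold change and its F statistic. The biological coefficient of variation was 3.75%. Depth was 24810378 to 28532480 reads per library. Single ratios and shares were compared by exact two-sided permutation over libraries (scipy 1.17.1). Alternatives were DESeq2 1.42.0, its size factors, other filters, a replicate block, glmTreat, limma 3.58.1 on log2(FPKM + 1) or log2(FPKM + 0.1), leaving out each library, and, chosen after seeing the data, FPKM rescaled to GENCODE 44 exon lengths. Of the gene identifiers, 99.7% were found in GENCODE 44. The fits were tested on simulated data.

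The members and lists were chosen with earlier results of these data known. CPM in every library are given for SURF4, the next 10 called members by absolute log2 fold change and their paralogs. From each list outside the set, the DEGs and the largest 2 rises and 2 falls among called genes are named.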

Additional observations from a re-analysis of the deposited data

How the results depend on the processing

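For the 34 tested members other than SURF4, 476 refits were made under 14 alternatives without glmTreat. Of these, 450 kept the main fit's status of called or not called, 24 lost the call and 2 gained it. Direction reversed in 0 refits of called members. Among members not called, log2 fold changes near 0 did change sign, as for SEC24A (-0.06 to 0.05), SAR1A (-0.02 to 0.04) and TMED1 (-0.04 to 0.04). DESeq2, its size factors in edgeR and no filter on low counts called the same 20 members, 17 higher and 3 lower. In that order, these fits called 12.2%, 15.3% and 7.71% of all genes higher and 12.4%, 15.3% and 8.16% lower. A test against the fold limit of 1.5 itself (glmTreat) called 0 higher and 1 lower, SURF4, against 0.101% and 0.411% of all genes. On log2(FPKM + 1), limma called 11 of 36 members higher and 1 lower, against 2.79% and 1.89% of all genes. SURF4 minus the coat median was -1.06 in that fit. On log2(FPKM + 0.1) limma called 11 higher and 1 lower, against 3.1% and 2.03% of all genes, with a member median of 0.16. For genes with a mean of at least 1 FPKM, limma on log2(FPKM + 1) called 15 of 35 members higher and 1 lower. Of all such genes, 15.6% were called higher and 9.07% lower, and SURF4 minus the coat was again -1.06. SEC16A, TMED3, SAR1B and PREB lost their calls in all 3 limma settings, and SEC23A, SEC23B, MIA3 and TMED9 in the 2 without a filter. The cause of these differences was not tested. Leaving out each library in turn gave 16 to 17 members higher, 3 to 4 lower, a member median of 0.10 to 0.13, SURF4 log2 fold changes of -1.01 to -0.99 and GRB2 log2 fold changes of -2.18 to -2.13. Those fits called 11.2% to 13.4% of all genes higher and 12.2% to 14.5% lower. SURF4 minus the receptors was then -1.12 to -1.07 and SURF4 minus the coat -1.14 to -1.09, and an arm left with 2 libraries shares its spread with the other. The main fit did not pair libraries by replicate number. Deviations of same-numbered libraries correlated at 0.232, -0.0948 and 0.0804, and those of other pairs at -0.282 to 0.228. So few libraries cannot settle whether the numbers mark pairs. With the replicate block, the calls were 17 higher and 3 lower, the same 20 genes, against 15.1% and 15.3% of all genes. Over all 26 shares, 6 of 208 refits changed sign, CPM shares included. For the 16 shares without overlap it was 0 of 128. Leaving out a library cannot change the sign where groups do not overlap, so those refits were no test. SEC24A, with 2284 reads, had the largest standard error of the tested members (0.08), so smaller changes were not detectable for it.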
